A study of Macaca fascicularis with 6 samples.

Results

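The genes described here encode core parts and regulators of the spliceosome in oocytes of the cynomolgus monkey (Macaca fascicularis). They are the rows of the count table whose gene symbol begins with SRSF, SF3A, SF3B, SNRP or PRPF: 44 of 28164 genes, with 11 SRSF, 3 SF3A, 5 SF3B, 12 SNRP and 13 PRPF genes. All 44 passed the filter on low counts and were among the 15815 genes tested. RNA was sequenced from 3 groups of oocytes with 2 libraries each, which per the labels were wild type, untreated and stripped of the surrounding cells. GV oocytes are immature and still hold the large nucleus called the germinal vesicle. IVM MII oocytes were cultured until meiosis had advanced to the second metaphase, and IVO MII oocytes reached that metaphase inside the animal. How old the animals were, whether hormones were given and how many oocytes went into a library is not stated in the labels, so p-values measure the spread between these libraries, which may be technical.

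Splicing removes introns from nuclear transcripts. Small nuclear ribonucleoproteins (snRNPs) carry out the recognition of the splice sites: the U1 snRNP binds the start of an intron, the U2 snRNP with its SF3a and SF3b complexes binds the branch site, and the U4/U6.U5 tri-snRNP then joins and is remodelled into the catalytic centre. SR proteins bind exons and help to recruit these particles. A fully grown oocyte is largely silent in transcription and matures on stored mRNA, whose poly(A) tails are shortened or lengthened as meiosis proceeds.

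Library totals ran from 27707021 to 35515139 counts. Levels are CPM, counts per 1000000 counts of a library whose total was scaled by a TMM factor, and a level per kb is that CPM divided by the length of the gene's exons. A gene was called when the adjusted p of edgeR's quasi-likelihood test, corrected over all 15815 genes by the Benjamini-Hochberg method, was under 0.05. Pairs of levels within a group are those of replicates 1 and 2, in that order. Values after ± are the standard error of a log2 fold change. Reverse transcription started from poly(A) tails, so fewer transcripts, shorter tails and fewer or smaller cells cannot be told apart, and each level is relative to the other poly(A)-primed RNA of its library.

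The splicing factor genes covered a wide range of levels in every group. Their counts together made up 0.257% to 0.299% of all counts in GV, 0.307% to 0.328% in IVM MII and 0.324% to 0.331% in IVO MII. These percentages are of unscaled library totals. On the scaled level the members summed to 3204 and 2852 CPM for the GV libraries. The IVM MII sums, 2700 and 2951 CPM, overlapped those of GV and so showed no rise. The IVO MII sums, 3473 and 3305 CPM, stayed above both GV libraries. The median member stood at 25.5 CPM in GV, 21.95 in IVM MII and 27.2 in IVO MII. The highest mean level in GV was that of PRPF18, a factor of the second step of splicing, at 920 CPM, whereas SNRPD1, the Sm ring protein SmD1, was highest in IVM MII at 462 CPM and in IVO MII at 798 CPM. Per kb of exon, PRPF18 in GV stood above 98.9% of all genes tested, at 498 CPM per kb, and SNRPD1 above 98.1%, 98.5% and 99.1% in GV, IVM MII and IVO MII. At the other end, SF3A2, a subunit of SF3a, had 2 and 0 counts in GV, 12 and 2 counts in IVM MII and 15 and 3 counts in IVO MII. GV was under the floor of 3 counts a library, so no fold change is given.

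**Figure D1:**
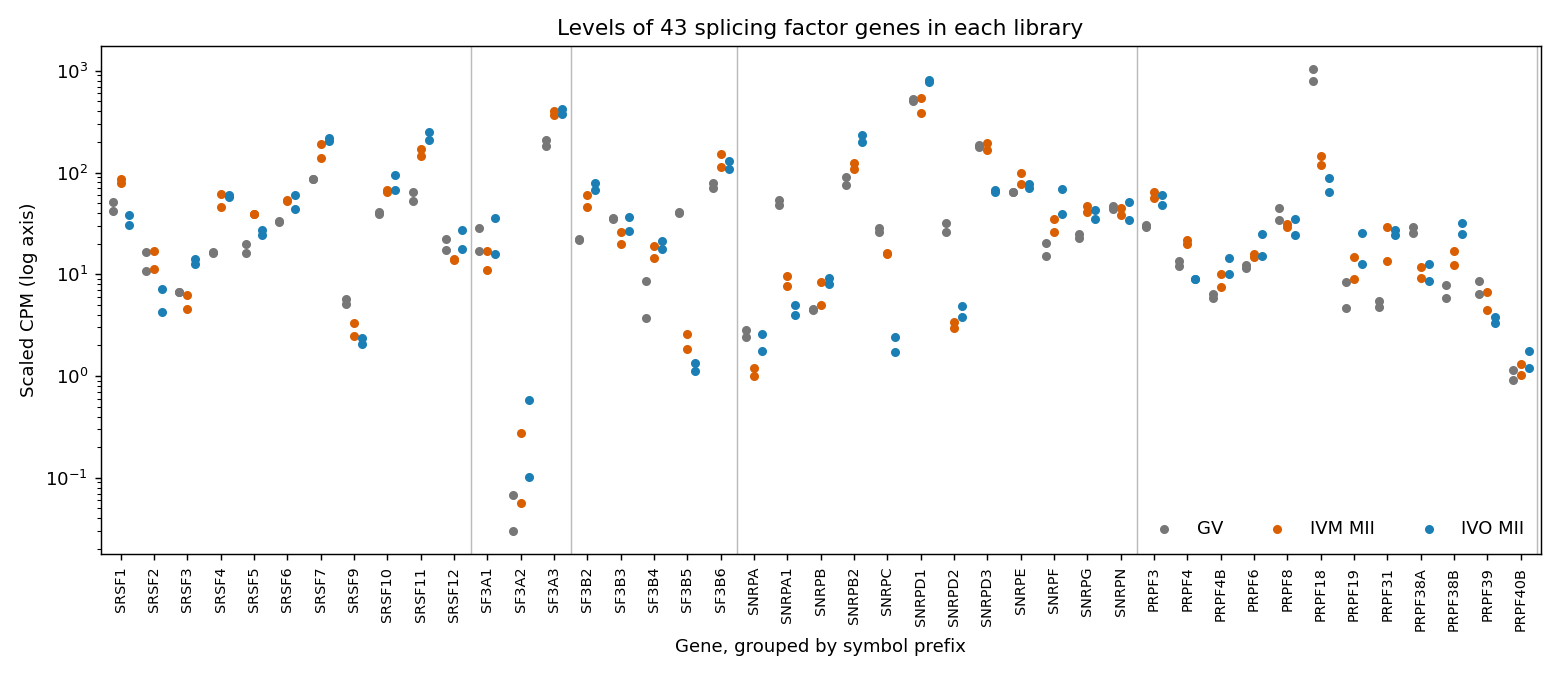
The vertical log axis gives the scaled CPM of 43 of the 44 genes, grouped by symbol prefix along the horizontal axis, with 1 point per library in the colour of its group; the GV library without a count of SF3A2 is drawn at 0.03. PRPF18 falls from 800 to 1040 CPM in GV to 64.2 to 147 CPM in the MII libraries, while most SRSF genes lie higher in the MII libraries than in GV.

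The comparisons of IVM MII and of IVO MII with GV ask which of these transcripts gained or lost share during maturation by either route; both use the same GV libraries. In IVM MII, 17 of the 44 genes were called higher than in GV (38.6%) and 9 lower (20.5%), while among all genes tested 25.6% were called higher and 24.7% lower. In IVO MII, 22 were higher (50%) and 10 lower (22.7%), against 28.1% and 30.5% of all genes. The median log2 fold change of the members was 0.47 in IVM MII and 0.65 in IVO MII (0.44 and 0.64 without SF3A2), beside 0.06 and -0.07 over all genes. Changes of more than 2-fold were called upward for 8 members and downward for 6 in IVM MII, and for 14 and 10 in IVO MII. Both libraries of IVM MII lay above both of GV for 24 members and below for 13, and both of IVO MII did so for 26 and 12. Neither changes of more than 2-fold nor such separations were counted over all genes, so these numbers describe the members only.

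These counts moved with the libraries and the scaling. Scaled by library totals, the counts in IVM MII were 22 higher and 5 lower in place of 17 and 9, and the median of all genes moved from 0.06 to 0.35 and that of the members from 0.47 to 0.75; in IVO MII the counts were the same 22 and 10. Without GV replicate 2, 8 members were higher in IVM MII (18.2%, beside 16.2% of all genes) and 5 lower (11.4%, beside 17.5%). In IVO MII that setting gave 14 higher (31.8%, beside 21.3%) and 8 lower (18.2%, beside 23.5%). With the strict filter of 10 CPM in 2 libraries, which 38 members passed, 11 were higher in IVM MII, 28.9% beside 28.2% of the 8048 genes left, and the median of the members was 0.23 beside 0.10. In IVO MII 15 of the 38 were then higher, 39.5% beside 33.9%, and the medians were 0.33 and 0.04. The share of members called higher was thus close to that of all genes in IVM MII under these 2 settings. The 9 lower calls in IVM MII also became 5 without GV replicate 1, IVM MII replicate 1 or IVM MII replicate 2, and the 17 higher ones became 10 without IVM MII replicate 2.

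**Figure D2:**
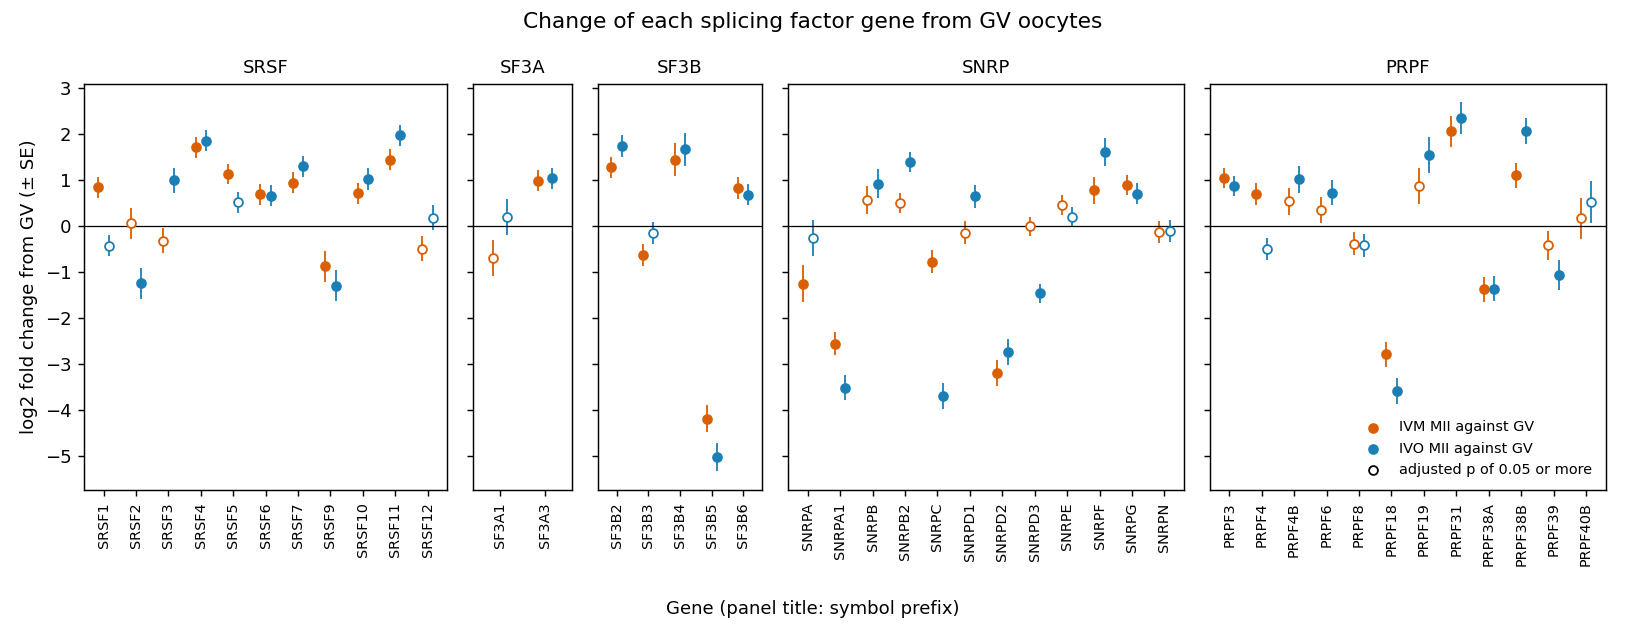
The vertical axis gives the log2 fold change from GV ± the standard error of the fit for 42 genes, SF3A2 left out, in panels by symbol prefix, with IVM MII and IVO MII side by side; filled points have an adjusted p under 0.05 and open ones do not. A few SNRP, SF3B and PRPF genes lie far below 0, led by SF3B5 at -4.19 and -5.02, and no gene shown lies above 2.34.

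Most SR protein genes stood higher in mature oocytes than in GV. Of the 11 SRSF genes, 7 were called higher (63.6%) and 1 lower (9.09%) in IVM MII, beside 25.6% and 24.7% of all genes. In IVO MII 6 were higher (54.55%) and 2 lower (18.2%), beside 28.1% and 30.5%. The summed level of the SRSF genes was 340 and 349 CPM in GV, 644 and 662 CPM in IVM MII and 677 and 794 CPM in IVO MII. The 4 MII libraries thus all lay above both GV libraries. The counts in IVM MII were 7 and 0 when scaled by library totals and 6 and 0 with the trend in gene length removed. Under the strict filter they were 4 and 1.

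SRSF11, an SR-related protein (macFas5 chromosome 1, 157095673 to 157143755), had 52.6 and 64.0 CPM in GV, 171 and 145 CPM in IVM MII and 207 and 248 CPM in IVO MII. The groups did not overlap, with GV lowest and IVO MII highest. Its log2 fold change from GV was 1.44 ± 0.23 in IVM MII (adjusted p = 0.000408) and 1.97 ± 0.23 in IVO MII (adjusted p = 3.6e-05). Exons of SRSF11 overlap those of LRRC40 on the opposite strand, and reads of the pair cannot be told apart in counts made without strand. SRSF4, a long canonical SR protein (chromosome 1, 198919995 to 198953524), stood at 16.6 and 16.2 CPM in GV, 61.1 and 45.6 CPM in IVM MII and 57.4 and 60.3 CPM in IVO MII. Both routes lay well above GV and overlapped each other. The rise in IVM MII was 1.71 ± 0.23 on the log2 scale (adjusted p = 0.000142), and that in IVO MII was 1.85.

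SRSF7, an SR protein that also serves mRNA export, rose by 0.93 in IVM MII and 1.30 in IVO MII on the log2 scale, from 87.1 and 85.7 CPM in GV to 139 and 191 and to 206 and 218. SRSF10, which represses splicing when dephosphorylated, rose by 0.71 and 1.02, and SRSF6, a canonical SR protein, by 0.68 and 0.65. SRSF5, also a canonical SR protein, rose by 1.12 in IVM MII, with 39.3 and 39.2 CPM against 19.8 and 16.3 in GV, and was at 0.51 and not called in IVO MII. SRSF9, which has a short RS domain, was lower than GV on both routes, at 5.72 and 5.11 CPM in GV, 3.36 and 2.50 CPM in IVM MII and 2.05 and 2.34 CPM in IVO MII. Both of its calls were lost with the trend in gene length removed. SRSF12, a relative of SRSF10, was called in neither comparison, at 17.4 and 22.4 CPM in GV, 14.3 and 13.9 CPM in IVM MII and 17.7 and 27.2 CPM in IVO MII.

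SRSF1, SRSF2 and SRSF3, all canonical SR proteins, differed between the routes. SRSF1 stood at 51.1 and 41.6 CPM in GV, 78.0 and 87.3 CPM in IVM MII and 30.2 and 38.5 CPM in IVO MII, and was called higher than GV in IVM MII alone (log2 fold changes 0.84 and -0.43). Its exons overlap those of LOC102124525 on the same strand. SRSF2 stood at 10.7 and 16.4 CPM in GV, 17.0 and 11.2 CPM in IVM MII and 4.25 and 7.10 CPM in IVO MII, and was called lower than GV in IVO MII (-1.25) while IVM MII overlapped GV. SRSF3, the smallest canonical SR protein, went the other way, at 6.74 and 6.70 CPM in GV, 4.54 and 6.22 CPM in IVM MII and 14.1 and 12.6 CPM in IVO MII, and was called higher in IVO MII (0.99).

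Several of the smaller SRSF changes lost their call when a library was left out. Fewer of all genes were also called without any 1 of the libraries compared. In IVM MII the calls of SRSF6, SRSF9 and SRSF10 were lost without any 1 of the 4 libraries compared, with log2 fold changes of 0.65 to 0.72, -1.09 to -0.69 and 0.67 to 0.77 and adjusted p-values of 0.0541 to 0.177. The call of SRSF1 was lost without GV replicate 2 (0.69, adjusted p = 0.0834) or IVM MII replicate 2 (0.75, adjusted p = 0.0599), and that of SRSF7 without IVM MII replicate 2 (0.68, adjusted p = 0.0577). In IVO MII the calls of SRSF2 (-0.92, adjusted p = 0.0818) and SRSF3 (0.99, adjusted p = 0.0535) were lost without GV replicate 2, and that of SRSF6 without GV replicate 1 or 2 or IVO MII replicate 2 (0.40 to 0.68, adjusted p = 0.0856 to 0.243). Under the strict filter SRSF1 (0.56, adjusted p = 0.0529), SRSF6 (0.40, adjusted p = 0.15) and SRSF10 (0.43, adjusted p = 0.122) lost their calls in IVM MII. In IVO MII SRSF6 lost its call (0.32, adjusted p = 0.225). SRSF12 in IVM MII (-0.78, adjusted p = 0.0303) and SRSF1 in IVO MII (-0.76, adjusted p = 0.0113) were then called lower. SRSF4, SRSF5 and SRSF11 in IVM MII and SRSF4, SRSF7, SRSF10 and SRSF11 in IVO MII were called under every alternative run.

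Subunits of the U2 particle that recognises the branch site moved in opposite directions. Of the 3 SF3A and 5 SF3B genes, 4 were called higher and 2 lower in IVM MII, and 4 were higher and 1 lower in IVO MII. SF3A3, a subunit of SF3a, rose from 209 and 181 CPM in GV to 404 and 365 in IVM MII and to 422 and 375 in IVO MII, log2 fold changes of 0.98 and 1.03. SF3A1, another subunit of the same complex, was called in neither comparison, at 28.5 and 16.9 CPM in GV, 11.1 and 16.9 CPM in IVM MII and 36.1 and 15.8 CPM in IVO MII.

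SF3B5, the small subunit of SF3b (chromosome 4, 48623675 to 48624423, annotated as an unbroken exon of 749 bases), had the largest fall of all 44 genes on both routes. It had 39.9 and 40.5 CPM in GV, 1.83 and 2.59 CPM in IVM MII and 1.35 and 1.12 CPM in IVO MII. No groups overlapped. Its log2 fold change from GV was -4.19 ± 0.29 in IVM MII (adjusted p = 1.71e-06) and -5.02 ± 0.31 in IVO MII (adjusted p = 6.38e-07). SF3B2, another SF3b subunit, went up over the same libraries, from 22.3 and 21.6 CPM in GV to 60.5 and 45.8 in IVM MII and to 67.0 and 79.0 in IVO MII, log2 fold changes of 1.27 and 1.73. SF3B6, the subunit that sits at the branch site, rose by 0.82 and 0.68 on the log2 scale, and SF3B4 by 1.43 and 1.66. Under the strict filter SF3B6 was called on neither route (0.54 and 0.34, adjusted p = 0.0534 and 0.183). SF3B3 was called lower in IVM MII (-0.64) and not called in IVO MII (-0.15).

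Of these SF3B calls, that of SF3B3 was lost without any 1 of the 4 libraries compared (-0.82 to -0.46, adjusted p = 0.0551 to 0.242) and when scaled by library totals (-0.33, adjusted p = 0.319). SF3B4 had 8.62 and 3.72 CPM in GV, so that its log2 fold change was 0.95 (adjusted p = 0.0562) in IVM MII without GV replicate 2 and 2.16 without GV replicate 1, and 1.18 and 2.39 in IVO MII. SF3B6 lost its call in IVM MII without GV replicate 2 (0.74, adjusted p = 0.0755) or IVM MII replicate 2 (0.60, adjusted p = 0.102), and in IVO MII without GV replicate 1 or 2 or IVO MII replicate 1 (0.53 to 0.76, adjusted p = 0.0536 to 0.129).

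SF3B1, the largest subunit of SF3b, is listed only under the identifier LOC101925246, so the prefix rule does not take it in. It had 62.8 and 34.1 CPM in GV, 60.5 and 96.4 CPM in IVM MII and 228 and 92.3 CPM in IVO MII. The spread between replicates was wide, and of the 3 comparisons it was called only in IVO MII against GV (log2 fold change 1.72 ± 0.41, adjusted p = 0.00367).

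Among the SNRP genes, which encode proteins of the snRNPs, the largest changes were falls. Of 12, 2 were higher (16.7%) and 4 lower (33.3%) in IVM MII, beside 25.6% and 24.7% of all genes. In IVO MII 5 were higher (41.7%) and 4 lower (33.3%), beside 28.1% and 30.5%. The median log2 fold change of the SNRP genes in IVM MII was -0.07. It was 0.22 when scaled by library totals and 0.30 with the trend in gene length removed, so it shows no direction for the family. In IVO MII the median was 0.04, and it was 0.12 when scaled by library totals and 0.81, with 6 higher and 4 lower, when the length trend was removed. The summed level was 1065 and 1020 CPM in GV, 878 and 1117 CPM in IVM MII and 1361 and 1259 CPM in IVO MII. SNRPD1 made up much of it, and without SNRPD1 the sums were 541 and 520, 497 and 573, and 541 and 482.

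SNRPC, a protein of the U1 snRNP that helps it to hold the 5 prime splice site (chromosome 4, 136004820 to 136020961), was the member that differed most between the routes. It had 26.2 and 28.6 CPM in GV, 15.9 and 16.1 CPM in IVM MII and 1.74 and 2.45 CPM in IVO MII. The groups formed 3 separate steps. The log2 fold change from GV was -3.70 ± 0.29 in IVO MII (adjusted p = 1.97e-06) and -0.78 in IVM MII. SNRPA, the A protein of the U1 particle, was low throughout, at 2.86 and 2.43 CPM in GV, 1.20 and 0.995 CPM in IVM MII and 1.78 and 2.62 CPM in IVO MII, and was called lower in IVM MII alone (-1.26). The IVM MII calls of SNRPC and SNRPA were both lost without any 1 of the 4 libraries compared, at -0.84 to -0.71 (adjusted p = 0.0644 to 0.119) and -1.38 to -1.13 (adjusted p = 0.0518 to 0.109), and when scaled by library totals (-0.48 and -0.96, adjusted p = 0.151 and 0.0788).

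The genes of a pair of U2 snRNP proteins that bind each other differed in direction in IVO MII. SNRPA1, the A prime protein of U2 (chromosome 7, 82247982 to 82263756), had 47.5 and 54.3 CPM in GV, 7.76 and 9.52 CPM in IVM MII and 4.95 and 3.94 CPM in IVO MII. All 4 MII libraries lay far below GV, with log2 fold changes of -2.56 in IVM MII and -3.52 in IVO MII. The partner SNRPB2, the B double prime protein (chromosome 10, 45525061 to 45536812), had 90.03 and 74.8 CPM in GV, 107 and 124 CPM in IVM MII and 231 and 200 CPM in IVO MII. It was called higher in IVO MII (1.39) and not in IVM MII (0.49, adjusted p = 0.0821).

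The Sm proteins form the ring around the RNA of the U1, U2, U4 and U5 snRNPs, and their 8 genes did not move together. In IVM MII 2 were higher, 1 lower and 5 not called, and in IVO MII 4 were higher, 2 lower and 2 not called. SNRPD2, for the ring protein SmD2 (chromosome 19, 46506401 to 46510944), fell furthest, from 26.2 and 31.7 CPM in GV to 2.96 and 3.38 in IVM MII and to 3.79 and 4.86 in IVO MII. The log2 fold change in IVM MII was -3.19 ± 0.28 (adjusted p = 7.55e-06), and in IVO MII it was -2.74. Exons of SNRPD2 overlap those of QPCTL on the opposite strand. SNRPD3, for SmD3 (chromosome 10, 27461322 to 27484405), had 187 and 176 CPM in GV, 165 and 195 CPM in IVM MII and 66.8 and 64.1 CPM in IVO MII. IVM MII overlapped GV, and IVO MII lay below both, with a log2 fold change from GV of -1.47.

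SNRPF and SNRPG, for SmF and SmG, were called higher on both routes. SNRPF had 20.4 and 15.2 CPM in GV, 26.04 and 34.7 CPM in IVM MII and 69.0 and 39.3 CPM in IVO MII, log2 fold changes of 0.77 and 1.60. SNRPG had 24.7 and 22.9 CPM in GV, 40.6 and 47.2 CPM in IVM MII and 42.4 and 34.6 CPM in IVO MII, changes of 0.89 and 0.70. SNRPD1 and SNRPB, for SmD1 and SmB, were called higher in IVO MII alone, by 0.64 and 0.92. SNRPE, for SmE, was called in neither comparison, at 64.5 and 64.7 CPM in GV and between 70.2 and 98.5 CPM in the MII libraries (0.44 and 0.19). It was called higher in IVM MII when scaled by library totals (0.73, adjusted p = 0.0123) and on both routes with the length trend removed. SNRPN, for the SmB relative SmN, was not called either, at 33.9 to 50.9 CPM over all libraries.

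Most of the called rises in the ring lost their call when some library was left out. Under the strict filter SNRPF was not called in IVM MII (0.49, adjusted p = 0.169). Nor were SNRPD1 (0.31, adjusted p = 0.271) and SNRPG (0.36, adjusted p = 0.155) in IVO MII. In IVM MII the call of SNRPF was lost under RLE factors, the scaling of DESeq2 (0.72, adjusted p = 0.0622), and without GV replicate 2 (0.57, adjusted p = 0.239) or IVM MII replicate 2 (0.55, adjusted p = 0.249), and that of SNRPG without GV replicate 2 (0.83, adjusted p = 0.0505). In IVO MII, SNRPD1 lost its call without any 1 of the 4 libraries compared (0.60 to 0.68, adjusted p = 0.0916 to 0.163), SNRPB without GV replicate 1 or 2 or IVO MII replicate 2 (0.82 to 0.93, adjusted p = 0.0755 to 0.101), and SNRPG without GV replicate 1 or 2 or IVO MII replicate 1 (0.54 to 0.75, adjusted p = 0.0559 to 0.113).

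The PRPF genes held the most abundant transcript of GV oocytes among the members and its steep fall. Of 13, 4 were higher (30.8%) and 2 lower (15.4%) in IVM MII, beside 25.6% and 24.7% of all genes. In IVO MII 7 were higher (53.85%) and 3 lower (23.1%), beside 28.1% and 30.5%. PRPF18 (chromosome 9, 14076226 to 14130363) had 1040 and 799.9 CPM in GV, 118 and 147 CPM in IVM MII and 89.3 and 64.2 CPM in IVO MII. The 3 groups did not overlap. The log2 fold change from GV was -2.80 ± 0.27 in IVM MII (adjusted p = 1.41e-05) and -3.58 ± 0.28 in IVO MII (adjusted p = 2.31e-06), 6.94-fold and 11.99-fold lower. The other 12 PRPF genes together went from 335 and 315 CPM in GV to 425 and 411 in IVM MII and to 633 and 561 in IVO MII, whereas with PRPF18 the sums went from 1376 and 1115 to 543 and 558 and to 723 and 625.

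Within the tri-snRNP, PRPF31 and PRPF3 of its U4/U6 part were called higher on both routes. PRPF31 (chromosome 19, 54952736 to 54985553) had 4.73 and 5.48 CPM in GV, 28.9 and 13.5 CPM in IVM MII and 27.5 and 24.3 CPM in IVO MII. Its rise was the largest of any called member on both routes: 2.05 ± 0.34 on the log2 scale in IVM MII (adjusted p = 0.00055) and 2.34 ± 0.34 in IVO MII (adjusted p = 0.00015). Without IVM MII replicate 1 the change in IVM MII was 1.43, and the gene's exons overlap those of TFPT on the opposite strand. PRPF3 rose by 1.03 and 0.87, from 28.9 and 30.3 CPM to 64.4 and 56.7 and to 60.2 and 47.9. PRPF4, the binding partner of PRPF3, rose in IVM MII alone (0.70) and stood at -0.51 in IVO MII, where it was not called (adjusted p = 0.0852). PRPF8, the core U5 protein of the catalytic centre, was called in neither comparison (-0.39 and -0.43) but lower in both under the strict filter and with the length trend removed, and PRPF6, which bridges the tri-snRNP, was called in IVO MII alone (0.72).

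Of the factors that activate the spliceosome, PRPF38A and its relative PRPF38B moved in opposite directions. PRPF38A fell by 1.38 in IVM MII and by 1.37 in IVO MII on the log2 scale, from 29.2 and 25.3 CPM in GV to 9.12 and 11.8 and to 12.48 and 8.66. PRPF38B (chromosome 1, 118105148 to 118114694) had 7.90 and 5.78 CPM in GV, 16.9 and 12.4 CPM in IVM MII and 25.2 and 31.9 CPM in IVO MII. GV was lowest and IVO MII highest without overlap, and the change was 1.09 in IVM MII and 2.06 ± 0.28 in IVO MII (adjusted p = 9.73e-05). PRPF4B, a kinase of tri-snRNP proteins, was called higher in IVO MII (1.01) and, when scaled by library totals, in IVM MII (0.81, adjusted p = 0.0318). PRPF19, the ubiquitin ligase of the Prp19 complex, was called higher in IVO MII (1.54), at 8.38 and 4.70 CPM in GV and 25.5 and 12.6 in IVO MII. In IVM MII PRPF19 stood at 0.87 (adjusted p = 0.0822) and was called under 6 of the alternatives (0.87 to 1.35, adjusted p = 0.0158 to 0.0402), and IVM MII against IVO MII was not called (-0.67, adjusted p = 0.225). PRPF39, a factor associated with the U1 snRNP, fell by 1.07 in IVO MII, from 6.33 and 8.66 CPM to 3.79 and 3.33. PRPF40B, at 0.919 to 1.78 CPM in all libraries, was not called.

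Under the strict filter PRPF4 lost its call in IVM MII (0.42, adjusted p = 0.146) and was called lower in IVO MII (-0.84, adjusted p = 0.00864). PRPF4B (0.68, adjusted p = 0.0555) and PRPF6 (0.38, adjusted p = 0.229) lost theirs in IVO MII. PRPF calls of moderate size were also lost when a library was left out. In IVM MII that of PRPF4 was lost without any 1 of the 4 libraries compared (0.63 to 0.77, adjusted p = 0.063 to 0.164), and that of PRPF38B without GV replicate 2 (0.89, adjusted p = 0.0705) or IVM MII replicate 1 (0.88, adjusted p = 0.0529). In IVO MII that of PRPF6 was lost without any library but IVO MII replicate 2 (0.32 to 0.77, adjusted p = 0.0536 to 0.397). PRPF19 was at 1.18 (adjusted p = 0.053) without GV replicate 2 and 0.95 (adjusted p = 0.0524) without IVO MII replicate 1. PRPF4B was at 0.94 (adjusted p = 0.0697) without GV replicate 1 and 0.72 (adjusted p = 0.085) without IVO MII replicate 1, and PRPF39 at -0.83 (adjusted p = 0.123) without GV replicate 2 and -0.98 (adjusted p = 0.0505) without IVO MII replicate 2.

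Setting IVM MII directly against IVO MII shows which splicing factor transcripts differed between oocytes matured in culture and in the animal. In it, 7 of the 44 members were higher in IVM MII (15.9%) and 5 lower (11.4%), beside 14.3% and 10.3% of all genes tested, so the members differed between the routes about as often as other genes. By prefix, 2 SRSF, 3 SNRP and 2 PRPF genes were higher and 1, 2 and 2 lower, and 0 of the 8 SF3A and SF3B genes were called by edgeR, with 2 of them, SF3A1 and SF3B5, under an unadjusted p of 0.05 and 0 called by DESeq2. SF3B5 was called when scaled by library totals (1.04, adjusted p = 0.0251) and under the strict filter (0.89, adjusted p = 0.0381), and SF3A1 without IVO MII replicate 2 (-1.35, adjusted p = 0.00718). Both IVM MII libraries lay above both IVO MII libraries for 12 members and below them for 15, a separation that was not counted over all genes. Scaled by library totals, the counts were 9 higher and 3 lower, with the median of all genes at 0.24 in place of 0.02.

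SNRPC differed most, with 15.9 and 16.1 CPM in IVM MII against 1.74 and 2.45 in IVO MII, 7.64-fold higher (log2 fold change 2.93 ± 0.28, adjusted p = 4.95e-05). SNRPD3 was 2.75-fold higher in IVM MII, at 1.46 ± 0.21 on the log2 scale (adjusted p = 0.000665). SRSF2 (chromosome 16, 74115224 to 74118535) was higher by 1.31 ± 0.34 (adjusted p = 0.0166), SRSF1 by 1.27 and PRPF4 by 1.21. PRPF4 had 21.6 and 19.9 CPM in IVM MII and 8.93 and 9.04 CPM in IVO MII, beside 13.5 and 12.2 in GV, so that GV lay between the routes. SNRPA1 and PRPF18, which had fallen on both routes, were higher in IVM MII by 0.96 and 0.79.

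Lower in IVM MII was SRSF3 (chromosome 4, 134137959 to 134146269), with 4.54 and 6.22 CPM against 14.1 and 12.6 (-1.31 ± 0.28, adjusted p = 0.00545). PRPF38B was lower by 0.97 on the log2 scale (SE 0.27, adjusted p = 0.0234) and SNRPB2 stood at -0.90 ± 0.22 (adjusted p = 0.0122). SNRPD1 was at -0.79, with 381 and 544 CPM in IVM MII against 820 and 777 in IVO MII. For SRSF3 both IVM MII libraries lay just below GV, for SNRPD1 they overlapped it, and for PRPF38B and SNRPB2 IVM MII lay between GV and IVO MII.

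**Figure D3:**
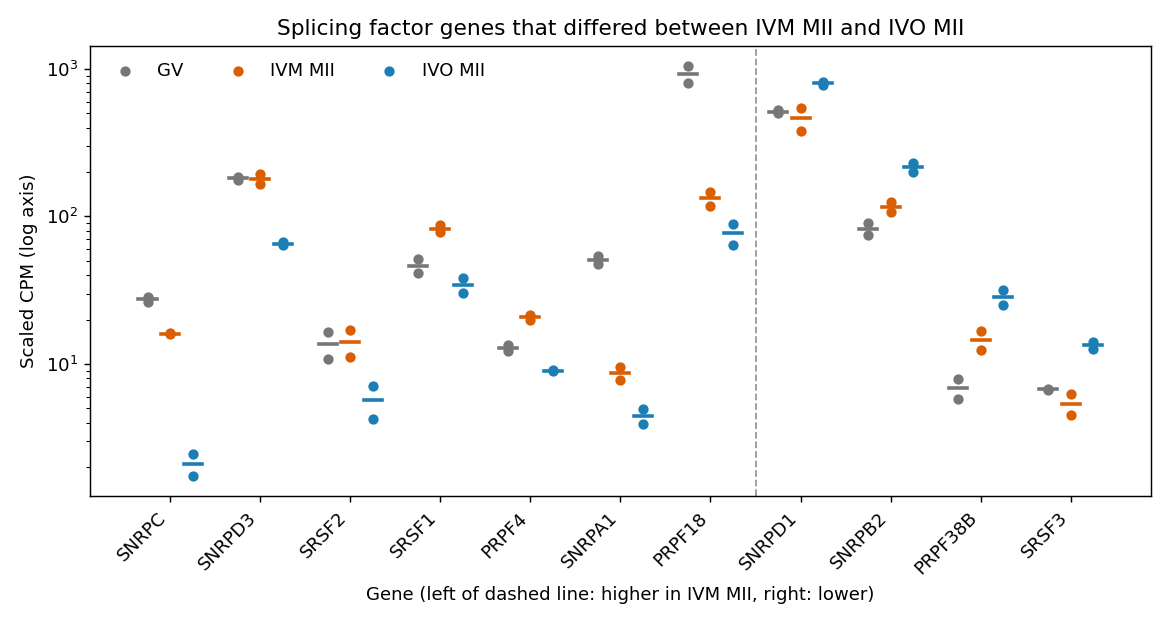
The vertical log axis gives the scaled CPM of 11 of the 12 members called between IVM MII and IVO MII, with 1 point per library and a bar at the group mean; the 7 genes left of the dashed line were higher in IVM MII and the 4 to its right lower. SNRPC drops to 1.74 and 2.45 CPM in IVO MII, and SRSF1 and PRPF4 lie above GV in IVM MII and below it in IVO MII.

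Of these 12 calls, those of SNRPC, SNRPD3, SRSF1 and PRPF4 held under every alternative run and the other 8 were lost without some library. SRSF2 was at 1.00 (adjusted p = 0.112) without IVM MII replicate 1 and 0.99 (adjusted p = 0.0829) without IVO MII replicate 1, and SRSF3 at -1.07 (adjusted p = 0.0514) without IVM MII replicate 1. SNRPA1 was at 0.80 (adjusted p = 0.102) without IVM MII replicate 2 and 0.81 (adjusted p = 0.0799) without IVO MII replicate 2, and SNRPB2 at -0.77 (adjusted p = 0.0977) and -0.79 (adjusted p = 0.0569) without replicate 1 of IVM MII and of IVO MII. PRPF38B was at -0.76 (adjusted p = 0.157) and -0.78 (adjusted p = 0.0883) without replicate 2 of IVM MII and of IVO MII, and at -0.73 (adjusted p = 0.117) when scaled by library totals. PRPF18 was lost under RLE factors (0.72, adjusted p = 0.0627), with the length trend removed (0.59, adjusted p = 0.144) and without either IVM MII library or IVO MII replicate 2 (0.58 to 0.96, adjusted p = 0.0585 to 0.236), and SNRPD1 without any library but IVM MII replicate 2 (-0.82 to -0.53, adjusted p = 0.0528 to 0.215), when scaled by library totals (-0.59, adjusted p = 0.0648) and with the compared libraries alone (-0.76, adjusted p = 0.0524). SNRPF, not called here, was called lower in IVM MII under RLE factors, without the low-count filter, with the length trend removed and by DESeq2 (-1.16 to -0.82, adjusted p = 0.00732 to 0.0426). Without IVM MII replicate 1 the 5 lower calls became 1, and without either IVM MII replicate 2 or IVO MII replicate 1 they became 3.

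Transcripts for subunits that meet in equal numbers in a complex stood at very unequal levels per kb of exon. Over the 8 Sm genes, which include both SmB and its relative SmN, the highest and lowest group means were 72.3-fold apart in GV, 60.1-fold in IVM MII and 76.2-fold in IVO MII. SNRPD1 was the highest in each group, at 283, 255 and 441 CPM per kb. The lowest was SNRPB in GV, at 3.91 CPM per kb, and SNRPD2 in IVM MII and IVO MII, at 4.24 and 5.78. Over the 5 SF3B members the span was 22.5-fold in GV, 39.5-fold in IVM MII and 63.8-fold in IVO MII, with SF3B6 highest in each group and SF3B5 lowest in both MII groups, at 53.7 CPM per kb in GV but 2.95 and 1.65 after maturation. The 5 tri-snRNP genes among the members, all PRPF genes, stood closer, with spans of 4.12-fold, 4.51-fold and 5.41-fold. The 13 tri-snRNP genes tested among the other splicing genes are not in these spans. No span is given for SF3a, because SF3A2 was near the floor. These spans are a description of means of 2 libraries and carry no test.

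**Figure D4:**
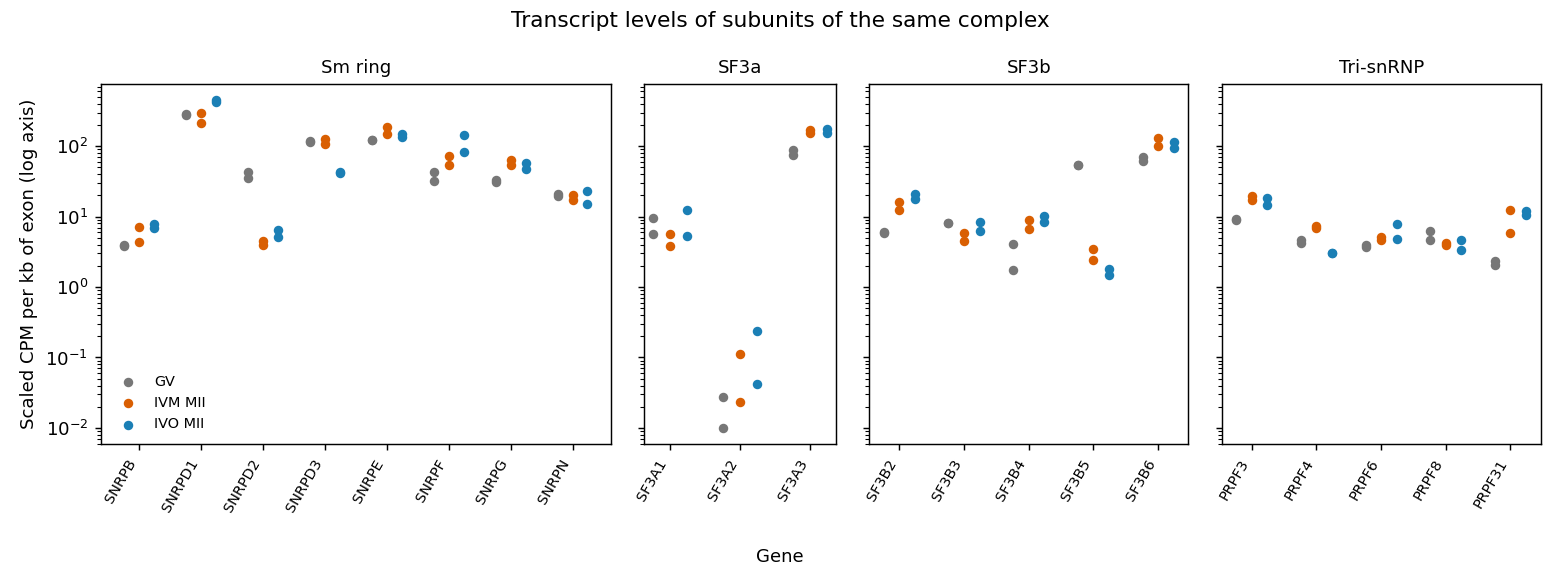
The vertical log axis gives scaled CPM per kb of exon in each library for the genes of the Sm ring, SF3a, SF3b and the tri-snRNP, with 1 point per library in the colour of its group; the GV library without a count of SF3A2 is drawn at 0.01. SNRPD1 heads the Sm ring in all groups, SNRPD2 and SF3B5 drop after maturation, and the 5 PRPF genes of the tri-snRNP lie close together.

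Log2 fold changes from GV tended to be higher for genes with longer exons, over all genes tested as well as over the members. At a boundary of 1500 bases of exon, chosen after the values were seen, the 12 shorter members held 3 higher and 6 lower calls in IVM MII, with 5 and 5 in IVO MII, and the 32 longer ones held 14 and 3, and 17 and 5. The Spearman correlation between exon length and log2 fold change across genes was 0.33 over the 44 members and 0.22 over the 15815 genes in IVM MII, and likewise 0.30 and 0.26 in IVO MII. The genes share their libraries and are not independent replicates, so these are descriptions. Shares of calls over all genes of the same length classes were not counted. With a per-library trend in length removed, 20 members were higher (45.5%) and 7 lower (15.9%) in IVM MII, beside 27.2% and 23.1% of all genes. In IVO MII 24 were higher (54.5%) and 10 lower (22.7%), beside 30.8% and 26.8%. The 24 include SF3A2, whose GV counts were under the floor. SNRPC in IVM MII was then at -0.27 (adjusted p = 0.36) and PRPF38A in IVO MII at -0.61 (adjusted p = 0.0813). SF3B5, SNRPD2, PRPF18 and SNRPA1 kept their calls below GV on both routes. Other results moved under it too. SRSF9 was at -0.30 (adjusted p = 0.476) in IVM MII and -0.43 (adjusted p = 0.299) in IVO MII, and the IVM MII calls of SNRPA (-0.78, adjusted p = 0.114) and SRSF10 (0.43, adjusted p = 0.134) and the IVO MII call of PRPF4B (0.65, adjusted p = 0.0704) were lost. SNRPE was called higher on both routes, at 1.06 (adjusted p = 0.00107) and 1.15 (adjusted p = 0.000452), and PRPF8 lower, at -0.67 (adjusted p = 0.0309) and -0.76 (adjusted p = 0.0152). SNRPB (1.07, adjusted p = 0.014) and SNRPB2 (0.81, adjusted p = 0.0138) were called higher in IVM MII as well, while in IVO MII SRSF1 was called lower (-0.70, adjusted p = 0.0168) and SRSF5 higher (0.59, adjusted p = 0.0393).

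**Figure D5:**
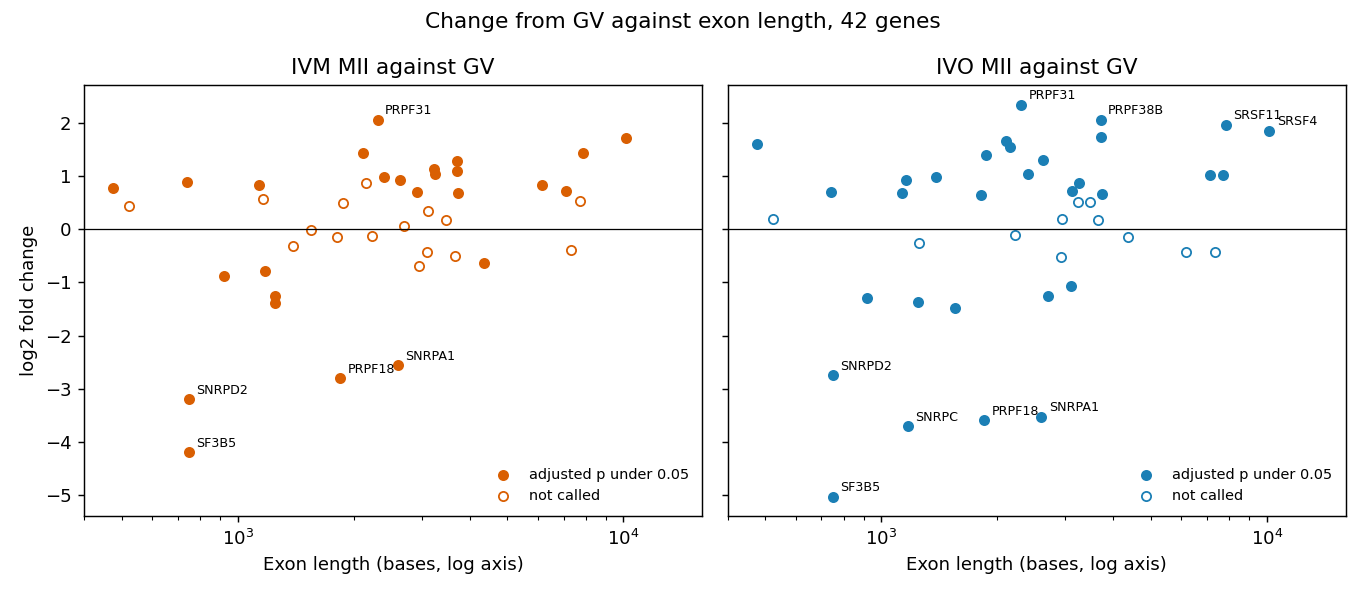
The horizontal log axis gives exon length in bases and the vertical axis the log2 fold change from GV of 42 genes, SF3A2 left out, for IVM MII on the left and IVO MII on the right; filled points have an adjusted p under 0.05. SF3B5 and SNRPD2, 749 and 748 bases long, lie at the lower left, while PRPF18 (1848 bases) and SNRPA1 (2604 bases) lie at -2.80 and -2.56 in IVM MII at moderate lengths.

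Other genes of the splicing machinery were called in both directions. Of 133 further symbols, listed by role, 131 were in the table and 130 were tested; against GV, 58 were called higher and 36 lower after maturation in culture and 57 and 42 after maturation in the animal. These were 44.6% and 27.7%, and 43.8% and 32.3%, of the genes tested, beside 25.6% and 24.7%, and 28.1% and 30.5%, of all genes, and the median log2 fold change was 0.42 on each route beside 0.06 and -0.07. Between the routes 20 stood higher in IVM MII (15.4%) and 13 lower (10%), beside 14.3% and 10.3% of all genes. The hnRNP proteins and other regulators that bind pre-mRNA held more higher than lower calls, 17 of 22 against 3 in IVM MII and 14 against 3 in IVO MII, with median log2 fold changes of 0.95 and 0.79. SR-related proteins and the kinases of SR proteins also held more higher than lower calls. Of 12, 8 and 7 were higher (66.7% and 58.3%) and 1 lower (8.33%) on each route, with medians of 0.77 and 0.98. HNRNPR, an hnRNP protein, rose from 8.99 and 8.76 CPM in GV to 34.3 and 29.7 in IVM MII and to 48.5 and 49.8 in IVO MII. CELF1, a regulator of alternative splicing, rose from 77.2 and 85.1 CPM to 284 and 258 and to 295 and 317.

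The NTC, the complex named after PRPF19 that stabilises the catalytic centre, and its associated factors held more lower calls, with 4 of 19 higher (21.1%) and 9 lower (47.4%) on each route, beside 25.6% and 24.7% of all genes in IVM MII and 28.1% and 30.5% in the animal, and medians of -0.72 and -0.43. Its member CTNNBL1 fell from 72.3 and 69.7 CPM in GV to 10.1 and 10.2 in IVM MII and to 16.04 and 11.5 in IVO MII. PPIE, a cyclophilin of that complex, fell from 38.3 and 40.8 to 8.06 and 6.48 and to 6.65 and 6.93. Of the 12 genes that assemble the Sm ring, 1 was higher (8.33%) and 5 lower (41.7%) in IVM MII. In IVO MII 2 were higher (16.7%) and 7 lower (58.3%), and the medians on these routes were -0.24 and -0.82. GEMIN8, of the SMN complex, fell from 46.1 and 37.6 CPM to 4.95 and 6.37 and to 5.76 and 4.99.

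The ring of LSm proteins on U6 RNA held genes that differed between the routes, with 4 of 7 higher in IVM MII than in IVO MII (57.1%) and 0 lower. Of all genes tested, 14.3% were higher and 10.3% lower. The ring is named for its share of higher calls, the largest among the roles listed. LSM6 had 570 and 500 CPM in GV, 381 and 472 CPM in IVM MII and 80.2 and 97.0 CPM in IVO MII. GEMIN2, which holds the Sm proteins during assembly, had 33.1 and 47.8 CPM in GV, 24.03 and 27.2 CPM in IVM MII and 4.95 and 6.12 CPM in IVO MII. Like SNRPC and SNRPD3, both stood lower in IVO MII than in IVM MII without overlap. In the opposite direction, SLU7, a factor of the second step of splicing, had 246 and 207 CPM in GV, 242 and 258 CPM in IVM MII and 632 and 505 CPM in IVO MII, and GEMIN5, which binds the snRNA for assembly, had 71.9 and 58.5, 61.2 and 61.9, and 159 and 121 CPM. These further genes were not refitted under the alternatives.

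Markers bear on the purity of the oocytes. All 15 oocyte markers in the table were tested, and their summed level was 32950 and 40180 CPM in GV, 16380 and 18670 CPM in IVM MII and 9567 and 12310 CPM in IVO MII. Markers of cumulus and granulosa cells summed to 225 and 205, 459 and 429, and 651 and 768 CPM. Of these 18 genes, 11 were under 1 CPM in every library, AMHR2, FOXL2, INHA, PTX3 and STAR had no count, and GATM alone held 177 and 162, 361 and 339, and 607 and 698 CPM. GREM1 was at 5.11 and 2.84 CPM in GV, 32.8 and 25.3 CPM in IVM MII and 4.83 and 3.19 CPM in IVO MII, and was called higher in IVM MII against GV (2.87) and against IVO MII (2.86). HAS2 was called higher than GV on both routes (1.91 and 2.15), at 5.07 and 4.90 CPM in GV and 12.68 to 31.6 CPM in the MII libraries. TNFAIP6 was called lower than GV in IVO MII (-0.69) and higher in IVM MII than in IVO MII (1.03). FSHR and FST, at 2.51 to 18.3 CPM, were not called, and CYP19A1, at most 1.01 CPM, was called lower in IVM MII, where its libraries had 0 and 0.114 CPM. The 14 markers of theca, stroma and endothelium summed to 331 and 389 CPM in GV, 163 and 155 CPM in IVM MII and 95.2 and 90.2 CPM in IVO MII. VWF held 288 and 337, 105 and 102, and 41.8 and 46.0 CPM of these, and 10 of the 14 were under 1 CPM in every library. Of the 6 tested, 1 was called higher and 2 lower than GV in IVM MII. In IVO MII 2 were higher and 2 lower, so not all went with the falling sum. The 10 blood and immune markers reached at most 13.7 CPM in sum, with CD3E, HBB and PPBP among those at 0. Of the 10, 9 were under 1 CPM in every library. The list was not free of change: of the 2 tested, 1 was called higher and 1 lower than GV in IVM MII. In IVO MII 0 were higher and 1 lower. The marker sums moved with the groups, as did the splicing factor genes, and their part in the results was not tested.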

How the data were processed

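RNA of GV, IVM MII and IVO MII oocytes, 2 libraries each, was compared. The deposited table holds raw counts per gene. Per the file headers, the authors made these counts with featureCounts 2.0.1 as fragments over exons of the macFas5 RefSeq annotation, without a strand option. Per the submitters' processing notes, fastp, FastQC, Bowtie2 and SAMtools were also used, with versions not given in the sources used here. Reads that span exon junctions are not split by Bowtie2 and so can be lost or placed in processed pseudogenes, and counts of genes with near-identical copies are uncertain. Exons of 7 of the 44 genes overlap those of another gene.

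From the counts, genes were filtered with edgeR's filterByExpr (15815 kept, 12349 left out) and scaled with TMM factors (0.903 to 1.22) in edgeR 4.0.16 and R 4.3.3. Its quasi-likelihood test, two-sided, was fitted to all 6 libraries with groups as terms and 3 residual degrees of freedom (biological coefficient of variation 0.232), with Benjamini-Hochberg correction across the genes tested and a threshold of 0.05. The floor of 3 counts per library was 0.0695 to 0.116 CPM and covers counting error only. The fit was tested on simulated data drawn from the means of the real genes. SF3B1 was named from its gene number in a RefSeq table of a later assembly, used for names only.

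The members, the other gene lists and the alternatives were chosen with earlier results of these data known. Of the members, 1 is counted in every total but not reported here or drawn, and neither is 1 marker. Every other member may be named; full statistics go to at most 3 members per comparison and direction, those called with the largest fold change, groups that do not overlap and a mean of 10 CPM or more where they are higher. Of the other splicing genes, the 3 with the lowest adjusted p per comparison and direction may be named. The alternatives were DESeq2 1.42.0, each library left out, scaling by library totals or RLE factors, removal of a trend with gene length, no filter on low counts or a stricter minimum (10 CPM in 2 libraries), a replicate block, and a fit to only the 4 libraries compared. No sequences were used here. Figures were drawn with matplotlib 3.10.9.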

Additional observations from a re-analysis of the deposited data

Results flagged for a closer look

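For 12 of the 44 genes the change from GV differed between maturation in culture and in the animal, by the edgeR test of IVM MII against IVO MII. The shared GV libraries cancel in this difference of the log2 changes. In that test 15.9% of the members were higher in IVM MII and 11.4% lower, beside 14.3% and 10.3% of all genes tested. The members were thus called about as often as other genes, and 4 of the 12 calls held under every alternative. Of these 12, 11 are given. Taken with its sign, the log2 fold change from GV was higher in IVM MII for SNRPC by 2.93 (adjusted p = 4.95e-05), SNRPD3 by 1.46 (0.000665), SRSF2 by 1.31 (0.0166) and SRSF1 by 1.27 (0.00236). The same held for PRPF4 by 1.21 (0.00405), SNRPA1 by 0.96 (0.0168) and PRPF18 by 0.79 (0.0433). SNRPC, SNRPA1 and PRPF18 fell on both routes, and fell less in IVM MII. SNRPD3 and SRSF2 were called lower than GV in IVO MII alone. It was lower in IVM MII for SRSF3 at -1.31 (0.00545), PRPF38B at -0.97 (0.0234), SNRPB2 at -0.90 (0.0122) and SNRPD1 at -0.79 (0.0367), as the signed log2 difference. SRSF1 and PRPF4 stood above GV in both IVM MII libraries and below it in both IVO MII libraries.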

How the results depend on the processing

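Counts of members higher and lower are given as pairs. IVM MII against GV had 17 and 9; the strict filter, which 38 members passed, gave 11 and 9 (28.9% and 23.7%, beside 28.2% and 29.2% of all genes), library totals 22 and 5 (50% and 11.4%, beside 33.3% and 19% of all genes), and leaving out 1 library 8 to 18 and 5 to 9. IVO MII against GV had 22 and 10, and leaving out 1 library gave 14 to 21 and 8 to 10. IVM MII against IVO MII had 7 and 5; library totals gave 9 and 3, removal of the length trend 6 and 7, DESeq2 7 and 7, and leaving out 1 library 5 to 7 and 1 to 6. Between the routes, the shares of all genes higher and lower were 17.7% and 5.65% under library totals. They were 12.6% and 12.9% with the length trend removed and 13.1% and 13.1% with DESeq2. For IVO MII against GV the strict filter gave 15 and 11 (39.5% and 28.9%, beside 33.9% and 35.5% of all genes). Leaving out a compared library also lowered the share of all genes called. Where 1 library is left out, the lone library of its group is assumed to vary like the others. With the replicate block the pairs were 18 and 8, 22 and 10, and 7 and 5. The correlations of same-numbered replicates' deviations were -0.19, 0.30 and -0.17, so the numbers were treated as names only. Under RLE factors 2 calls of members were lost, under library totals 6, without the low-count filter 2, under the strict filter 12, with the length trend removed 8, with the compared libraries alone 2 and with DESeq2 0. The 12 calls lost under the strict filter were all rises against GV. No called member reversed its direction under any alternative, and 12 of 26, 19 of 32 and 4 of 12 calls held under all of them. The cause was not tested for any count that moved. Fits to 2 libraries a group limit what can be called, and low members such as SF3A2 are near the floor.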
